A study of Macaca fascicularis and Mus musculus with 42 samples.

Results

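Cells sorted for the PRDM1 reporter alone were set against induced cells in which PRDM1 was near 0, both taken from cynomolgus monkey (Macaca fascicularis) stem cells under induction to PGCLC, the in vitro form of primordial germ cells from which the germ line arises. The comparison covers 7 of the 42 libraries of the series: 3 PRDM1-only libraries and 4 PRDM1-negative libraries. All were bulk libraries of 3′ transcript ends made from total RNA, and levels are in RPM (reads per M reads of the library). Every library came from the reporter line 656BTAG42, which carries the transgenes Blimp1-tdTomato (Blimp1 is PRDM1) and TFAP2C-EGFP, so all values rest on a single line. Before induction the stem cells were kept with bFGF, and for induction they were aggregated with BMP4, SCF, EGF, LIF and the kinase inhibitor Y27632. The PRDM1-only libraries were labelled BT single positive, and all came from aRB27 medium (Advanced RPMI1640 with B27): 1 on day 2 and 2 on day 4. The PRDM1-negative libraries came from aRB27 on day 2 (labelled AG mid positive), from GK15 medium (GMEM with knockout serum replacement, KSR) on day 2 (labelled BTAG positive), and from GK15 on day 4 (1 labelled BTAG positive and 1 AG mid positive). Values below are given in this order. The transgene names are the ground for reading BT as the reporter of PRDM1 and AG as that of TFAP2C.

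PRDM1 and SOX2 levels chose the PRDM1-negative group. It holds the induced libraries of the reporter line, out of 28, with PRDM1 under 50 RPM and SOX2 under 200 RPM, whereas the PRDM1-only group follows the sorting label. PRDM1 was at 85.1, 104 and 114 RPM in PRDM1-only libraries, against 11.1, 4.9, 0 and 0.9 RPM in PRDM1-negative libraries. The highest PRDM1 level inside the limit was 11.1 RPM. The lowest outside it was 85.1 RPM in the PRDM1-only group and 118 RPM among the other induced libraries with SOX2 under 200 RPM. For SOX2 the levels just inside and outside its limit were 109.8 and 394 RPM. The library at 394 RPM, labelled BTAG in GK15 on day 6, had 0.5 RPM of PRDM1, so only its SOX2 level kept it out. SOX2 measured 0, 1 and 0.72 RPM in PRDM1-only libraries, against 33.4, 109.8, 0.38 and 23.9 RPM in PRDM1-negative libraries. TFAP2C had 0.34, 3.48 and 2.53 RPM in PRDM1-only libraries, against 146, 119.6, 45.8 and 24.4 RPM in PRDM1-negative libraries. These 3 genes define the groups or the gates and were not tested. Both BTAG libraries in the PRDM1-negative group go against their label, since BTAG cells carry the PRDM1 reporter and their PRDM1 was 4.9 and 0 RPM. Conversely, 2 libraries labelled AG mid, in GK15 on days 2 and 4, had 194 and 145 RPM of PRDM1 and are not in the group. Their TFAP2C was at 694 and 770 RPM. If the 33 reporter-line columns are read in the alphabetical order of their names, 9 libraries fall in another group. All 4 PRDM1-negative libraries then carry an AG mid name of the same medium and day. The 2 AG mid libraries with PRDM1 then carry BTAG names. A library labelled as reporter stem cells, with 253 RPM of PRDM1, 16.8 of SOX2 and 588 of TFAP2C, then carries a BTAG name. The BTAG day 6 library with 394 RPM of SOX2 had 7.47 RPM of TFAP2C and then carries a stem cell name. Whether the names were shifted was not tested. Counts for the main gene groups are therefore given also without the 2 libraries labelled BTAG, and beside those of the labelled gates. That comparison uses no measured level, and its 4 AG mid libraries take in the 2 with 194 and 145 RPM of PRDM1. Since measured PRDM1 and SOX2 chose the group, genes that move with either are not independent of that choice, and the calls describe these 7 libraries.

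PRDM1 is a transcriptional repressor that acts with SOX17 and TFAP2C when primate germ cells are specified, and it is also switched on in cells of the anterior streak and the endoderm. Under BMP signals, pluripotent cells can take several other paths in parallel: streak cells give endoderm, which uses FOXA2, SOX17, GATA and HNF factors, or mesoderm, which uses HAND1 and related factors, while another path gives amnion, which uses TFAP2A, ISL1 and GATA3. In bulk samples, fewer cells of a type and less RNA per cell cannot be told apart. The labels do not say that the libraries are separate cultures, so the p-values measure only the spread between these samples, which may be technical.

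Depth ran between 2.01 and 2.93 M reads in PRDM1-only libraries and between 2.42 and 6.69 M in PRDM1-negative ones, and 13998 to 16052 genes were detected per library. Correlations between libraries on the log2 scale lay between 0.953 and 0.967 among PRDM1-only libraries, between 0.936 and 0.978 among PRDM1-negative ones and between 0.900 and 0.934 across the groups. Of 9661 genes tested with limma on log2(RPM + 1), 728 were called (7.54%), that is, they had a Benjamini-Hochberg adjusted p under 0.05 and a log2 difference of at least 1. In PRDM1-only cells 349 were higher (3.61%) and 379 lower (3.92%), and 2287 (23.7%) had groups that did not overlap. The shares of higher and lower genes are the background for each count of list or family members below. With only the 2 AG mid libraries as PRDM1-negative, 292 were called (3.16%; 173 higher and 119 lower). The labelled gates, 3 BT single against 4 AG mid libraries, gave 151 calls among 9710 genes (1.56%; 103 higher and 48 lower). Medium is tied to the groups, because 3 of the 4 PRDM1-negative libraries came from GK15 and none of the PRDM1-only ones did. With medium as a covariate, where the 3 PRDM1-only libraries are in effect set against 1 aRB27 library, 62 genes were called (0.642%). Of the 728 genes 656 still differed by at least 1 on the log2 scale. The median size of the 728 was 2.10 with medium as a covariate and 2.17 without. These genes were called with that aRB27 library in the group, and 724 of them had groups that did not overlap. Their sizes were thus largely set by how they were chosen and do not measure the effect of medium.

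**Figure D1:**
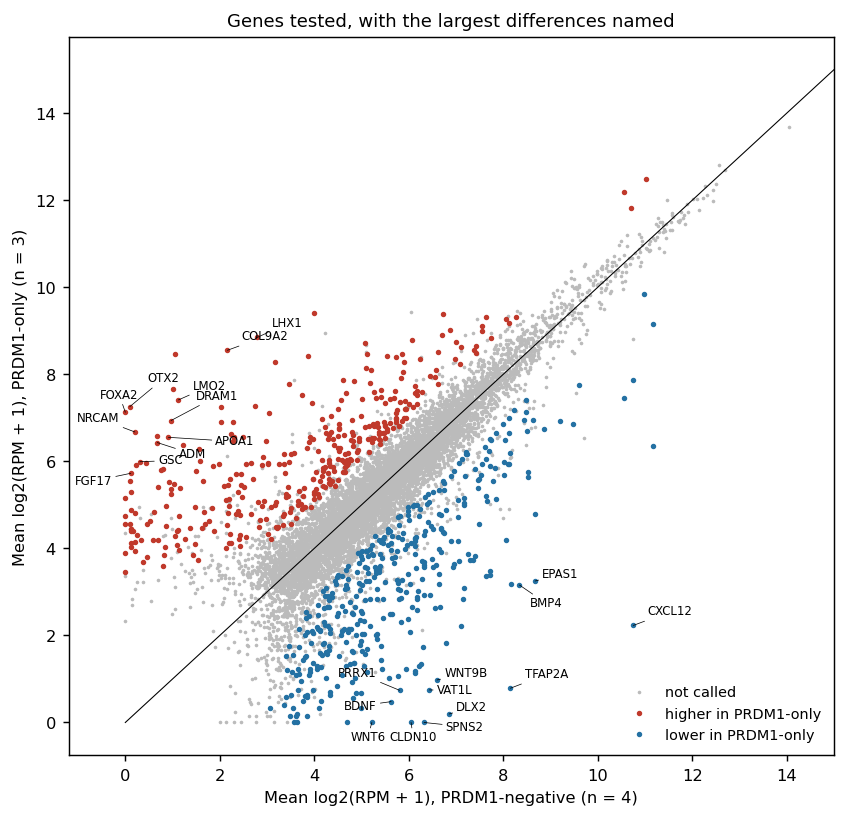
Each point is 1 of the 9661 genes tested, with its mean log2(RPM + 1) in the 3 PRDM1-only libraries (vertical) against that in the 4 PRDM1-negative libraries (horizontal). The line marks equal levels; 349 genes are called higher (red) and 379 lower (blue), and genes with the largest differences are named.

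Endoderm factors were higher in PRDM1-only cells, among them OTX2, FOXA2 and LHX1. Of 18 listed genes 16 passed the filter on low values, and 11 of these were higher in PRDM1-only cells and none was lower, where 3.61% of all genes tested were higher. The median log2 difference of the list was 4.65, beside -0.02 over all genes tested. Without the 2 libraries labelled BTAG 7 of the 16 were higher, and by the labelled gates 5 were. The list was drawn up with results of these data known, so its count is a description. The 8 endoderm markers together summed to 1489 RPM or more in each PRDM1-only library and to at most 488 RPM in PRDM1-negative ones, and 7 of the 8 were at 10 RPM or more in all 3 PRDM1-only libraries, against 2 in all 4 PRDM1-negative ones.

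FOXA2, the pioneer factor of endoderm, was at 139, 114 and 169.7 RPM in PRDM1-only libraries, against 0 RPM in every PRDM1-negative library. No read was found in any of the 4 PRDM1-negative libraries, so the level was at least 686-fold higher in PRDM1-only cells (against a floor of 3 reads over the 4 libraries together; limma adjusted p = 1.76e-05). OTX2, a homeobox factor of anterior epiblast and anterior endoderm, measured 87.8, 139 and 287 RPM in PRDM1-only libraries, against 0, 0, 0 and 0.3 RPM in PRDM1-negative libraries. Its groups lay far apart, with a single PRDM1-negative library above 0 (log2 difference 7.16 ± 0.44 SE, limma adjusted p = 0.000117). Both were also found in the other 26 reporter-line libraries, where OTX2 ran between 18.02 and 122 RPM and FOXA2 between 0.13 and 42.1 RPM. LHX1, a LIM-homeobox factor of the organizer, had 302, 489 and 658 RPM in PRDM1-only libraries, against 11.1, 4.9, 3.03 and 7.02 RPM in PRDM1-negative libraries. All PRDM1-only libraries were high and the PRDM1-negative ones held traces (log2 difference 6.05 ± 0.40 SE, limma adjusted p = 0.000126). These 3 were also called with medium as a covariate, where the differences were 7.13 for FOXA2, 7.26 for OTX2 and 5.25 for LHX1 on the log2 scale.

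GATA4, GATA6, SOX17 and HNF4A were the other endoderm transcription factors called. GATA4, a zinc-finger factor of endoderm and heart, was at 351, 207 and 553 RPM in PRDM1-only libraries, against 14.8, 3.85, 32.5 and 16.1 RPM in PRDM1-negative libraries. GATA6, its relative in primitive and definitive endoderm, measured 220.4, 480.3 and 325 RPM in PRDM1-only libraries, against 34.2, 53.5, 144 and 117 RPM in PRDM1-negative libraries. Both were higher in every PRDM1-only library, by 4.57 ± 0.60 and 2.11 ± 0.49 on the log2 scale (SE; limma adjusted p = 0.00345 and 0.0325), but GATA6 was present on both sides. SOX17, a factor of endoderm and of primate germ cells, had 475, 925 and 716 RPM in PRDM1-only libraries, against 114, 33.2, 1.89 and 4.63 RPM in PRDM1-negative libraries. The PRDM1-negative libraries of day 2 held 33.2 RPM or more and those of day 4 at most 4.63 RPM, and no library overlapped the other group (log2 difference 5.42 ± 1.10 SE, limma adjusted p = 0.0197). SOX17 was not called without the libraries labelled BTAG or with medium as a covariate, where its log2 difference was 2.56. HNF4A, a nuclear receptor of liver and visceral endoderm, was at 166, 6.47 and 80.7 RPM in PRDM1-only libraries, against 0, 0.35, 0 and 0 RPM in PRDM1-negative libraries. The first day 4 library held far less than the other PRDM1-only libraries, yet more than any PRDM1-negative one (log2 difference 5.44 ± 0.96 SE, limma adjusted p = 0.0117). EOMES, a T-box factor of streak and endoderm, had 257, 739 and 636 RPM in PRDM1-only libraries, against 144, 52.1, 1.14 and 6.28 RPM in PRDM1-negative libraries. Its groups did not overlap either, and it missed the threshold (log2 difference 4.73 ± 1.27 SE, limma adjusted p = 0.0528). CER1 and NODAL, also on the list, overlapped between the groups, and FOXA1 and HHEX did not pass the filter.

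**Figure D2:**
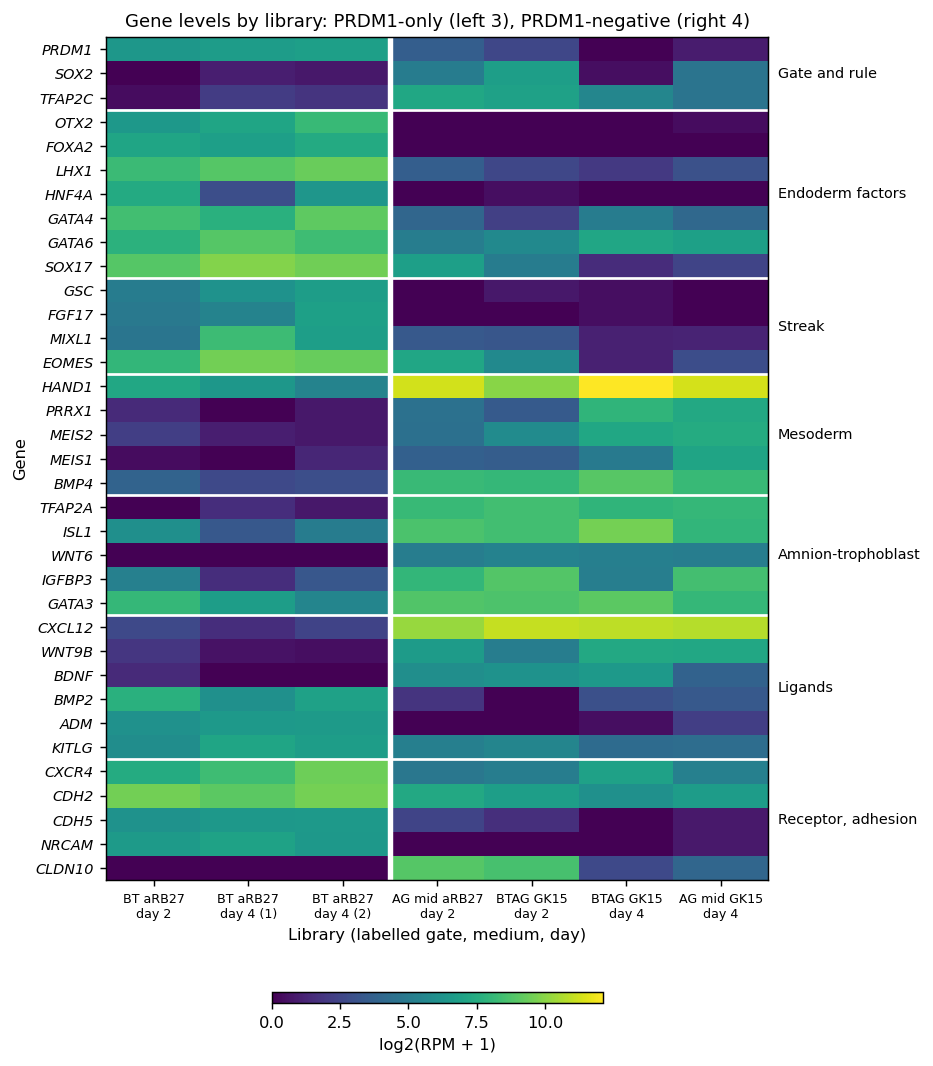
Rows are genes grouped by role and columns are the 7 libraries, PRDM1-only on the left of the white line and PRDM1-negative on the right; colour is log2(RPM + 1). The rows of OTX2, FOXA2, GSC and FGF17 are dark throughout the right side (FOXA2 was 0 in all 4 libraries), and those of HAND1, BMP4, TFAP2A and CXCL12 are brighter there than on the left.

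Of the genes of the primitive streak, the organizer genes GSC and FGF17 and the factor MIXL1 were higher in PRDM1-only cells. Of 16 streak genes measured 12 passed the filter, and 3 were higher and none lower (median log2 difference 1.01). Over all genes tested 3.61% were higher and 3.92% lower. GSC and FGF17 were called without the libraries labelled BTAG as well. GSC, the homeobox repressor that marks the organizer, measured 32.8, 70.2 and 106 RPM in PRDM1-only libraries, against 0, 0.7, 0.38 and 0 RPM in PRDM1-negative libraries. FGF17, an FGF8-like ligand, had 29, 41.3 and 116 RPM in PRDM1-only libraries, against 0, 0, 0.38 and 0 RPM in PRDM1-negative libraries. Each was at most 1 RPM in PRDM1-negative cells and clearly present in PRDM1-only cells (log2 difference 5.68 ± 0.51 SE, limma adjusted p = 0.000757 for GSC; log2 difference 5.61 ± 0.57 SE, limma adjusted p = 0.00125 for FGF17). Both were called by the labelled gates and with medium as a covariate. MIXL1, a homeobox factor of streak cells, was at 25.3, 320.03 and 111 RPM in PRDM1-only libraries, against 9.49, 8.39, 1.14 and 1.34 RPM in PRDM1-negative libraries. Its highest library was the first of day 4, and its PRDM1-negative levels were below 10 RPM (log2 difference 4.38 ± 0.89 SE, limma adjusted p = 0.0195). T (brachyury), the general streak factor, had 7.17, 61.7 and 11.2 RPM in PRDM1-only libraries, against 42.9, 30.1, 1.89 and 1.94 RPM in PRDM1-negative libraries; the groups overlapped and it was not called. NODAL pathway genes gave 1 call in 9 tested, GDF3, a ligand that works with NODAL (log2 difference 4.12 ± 0.69 SE, limma adjusted p = 0.00947), with 24.3, 15.9 and 72.7 RPM in PRDM1-only libraries, against 2.48, 1.75, 0 and 0.15 RPM in PRDM1-negative libraries.

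Genes of differentiated, liver-type endoderm were high mainly in 1 library. Of 24 listed genes only 9 passed the filter, and 1 was called, the apolipoprotein APOA1 (log2 difference 5.64 ± 1.11 SE, limma adjusted p = 0.0175), with 436, 9.46 and 180.2 RPM in PRDM1-only libraries, against 2.48, 0, 0.76 and 1.05 RPM in PRDM1-negative libraries. TTR, the thyroxine carrier of visceral endoderm and liver, had 778, 0 and 36.9 RPM in PRDM1-only libraries, against 0, 0, 0 and 1.2 RPM in PRDM1-negative libraries. FGB, a fibrinogen chain, had 233, 0.5 and 7.24 RPM in PRDM1-only libraries, against 0 RPM in every PRDM1-negative library, and APOB, the core protein of lipoproteins, had 344, 0.5 and 13 RPM in PRDM1-only libraries, against 2.06, 4.9, 1.51 and 0.3 RPM in PRDM1-negative libraries. The day 2 library was the highest for all 3, and the first day 4 library was at or near 0. The 9 visceral endoderm and liver-type markers together summed to 2048, 16.9 and 323 RPM in PRDM1-only libraries, against 4.95, 15.4, 4.54 and 2.85 RPM in PRDM1-negative libraries. APOA1 was not called without the libraries labelled BTAG, by the labelled gates or with medium as a covariate. Only 1 PRDM1-only library came from day 2, so day and library cannot be told apart here.

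Mesoderm factors were lower in PRDM1-only cells, among them HAND1, PRRX1 and MEIS2. Of 14 tested, 6 (these with MEIS1, MSX1 and BMP4) were lower in PRDM1-only cells, where 3.92% of all genes tested were lower, and none was higher (median log2 difference -1.88). Of the 6, 4 were also lower without the libraries labelled BTAG, and none was called by the labelled gates. HAND1, a basic helix-loop-helix factor of lateral and extraembryonic mesoderm, measured 153, 83.6 and 41.6 RPM in PRDM1-only libraries, against 2459, 1011, 4427 and 2541 RPM in PRDM1-negative libraries. It was present in both groups and lower in every PRDM1-only library (log2 difference -4.81 ± 0.53 SE, limma adjusted p = 0.00155). PRRX1, a homeobox factor of mesenchyme, had 1.71, 0 and 0.72 RPM in PRDM1-only libraries, against 21.9, 9.79, 245 and 159.6 RPM in PRDM1-negative libraries. MEIS2, a cofactor of HOX proteins, was at 3.76, 1 and 0.72 RPM in PRDM1-only libraries, against 21.4, 57.4, 148 and 173 RPM in PRDM1-negative libraries. Both were near 0 in PRDM1-only cells, and PRRX1 was highest in the GK15 libraries of day 4 (log2 difference -5.06 ± 1.03 SE, limma adjusted p = 0.0197 for PRRX1; log2 difference -4.91 ± 0.70 SE, limma adjusted p = 0.00494 for MEIS2). MEIS1, its relative, had 0.34, 0 and 1.45 RPM in PRDM1-only libraries, against 12, 10.8, 29.9 and 135 RPM in PRDM1-negative libraries, also without overlap (log2 difference -4.25 ± 0.83 SE, limma adjusted p = 0.017). FOXF1 and NKX2-5 did not pass the filter and TBX20 overlapped, with 39.6, 4.98 and 47 RPM in PRDM1-only libraries, against 55.3, 15, 227 and 31.4 RPM in PRDM1-negative libraries. The 7 markers of lateral and extraembryonic mesoderm together summed to between 97.6 and 291 RPM in PRDM1-only libraries and between 1131 and 5223 RPM in PRDM1-negative ones, and HAND1 held most of the second sums. Of 14 genes of fibrillar collagens and stroma 12 were not called, the receptor PDGFRB was lower (-3.42) and the proteoglycan VCAN higher. COL1A1 and COL3A1 were highest in the GK15 day 4 libraries.

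Genes linked to amnion and trophoblast were also lower: 6 of 12 tested and none higher (median log2 difference -3.15, or -3.38 with WNT6 at its bound), 5 of them without the libraries labelled BTAG and 1 by the labelled gates. TFAP2A, the relative of TFAP2C used in amnion, surface ectoderm and neural crest, measured 0, 1.99 and 0.72 RPM in PRDM1-only libraries, against 289.6, 345, 243 and 266 RPM in PRDM1-negative libraries. Its groups stood far apart (log2 difference -7.36 ± 0.35 SE, limma adjusted p = 1.76e-05), and it was the member called by the labelled gates and 1 of the 2 called with medium as a covariate. ISL1, a LIM-homeobox factor of amnion and of heart progenitors, had 63.9, 8.96 and 32.6 RPM in PRDM1-only libraries, against 415, 343, 766 and 253 RPM in PRDM1-negative libraries. The 3 PRDM1-only libraries were lower throughout, though not at 0 (log2 difference -3.87 ± 0.60 SE, limma adjusted p = 0.00688). WNT6, a WNT ligand, was at 0 RPM in every PRDM1-only library, against 34.2, 40.9, 36 and 34.2 RPM in PRDM1-negative libraries. With no read in the PRDM1-only libraries, the level was at least 93.3-fold lower there (against 3 reads over the 3 libraries together; limma adjusted p = 0.000125). GATA3, a zinc-finger factor of trophoblast and amnion, had 269.9, 105 and 45.2 RPM in PRDM1-only libraries, against 449, 429.8, 533 and 271 RPM in PRDM1-negative libraries; its log2 difference of -1.90 missed the threshold (limma adjusted p = 0.0561). GABRP and KRT7, later markers, were near 0 in PRDM1-only cells and above 10 RPM only in the GK15 libraries of day 4, and neither was called. IGFBP3 (-4.26), BAMBI (-2.88) and HAND1 complete the 6. HAND1 also counts in the mesoderm list, WNT6 in that of WNT genes and BAMBI in that of BMP targets. The 7 amnion and trophoblast markers summed to between 103 and 351 RPM in PRDM1-only libraries and between 951 and 1666 RPM in PRDM1-negative ones. The part that mesoderm-like, amnion-like or liver-type cells took in the other differences was not tested.

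**Figure D3:**
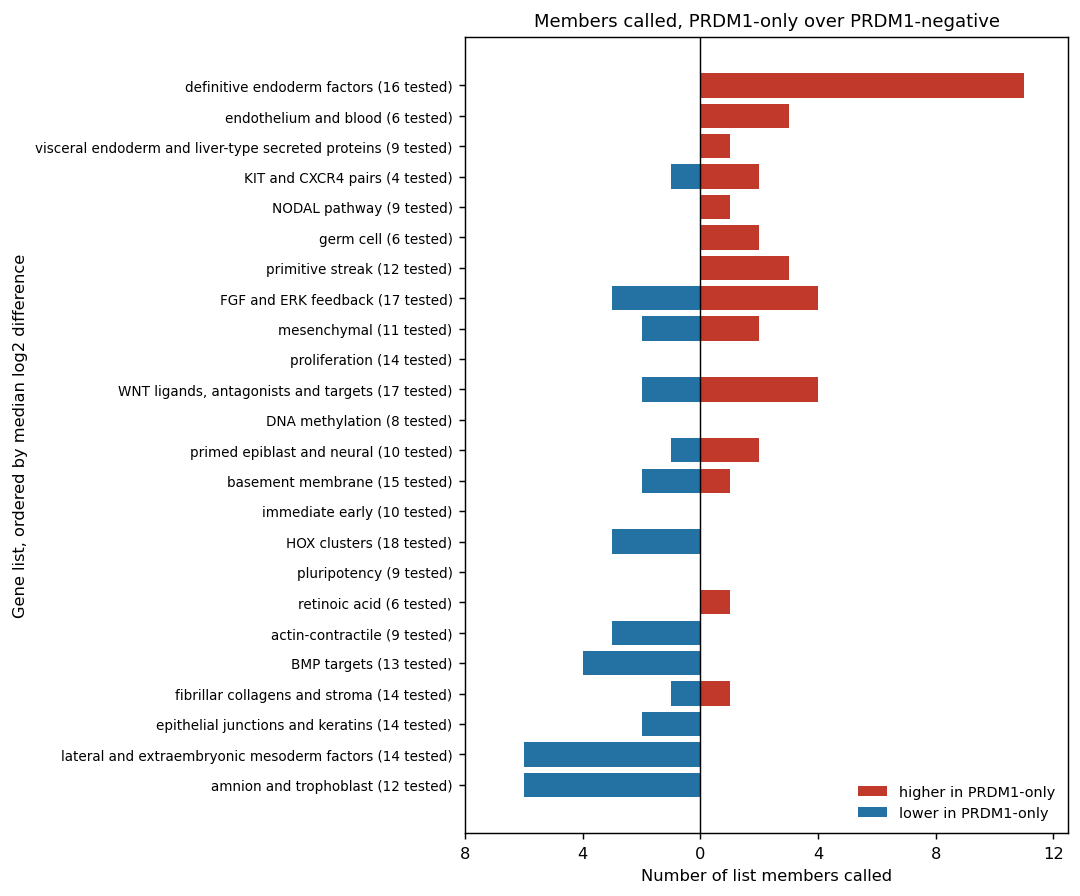
Bars count the members of 24 gene lists called higher (red, to the right) or lower (blue, to the left) in PRDM1-only cells, with the lists ordered by median log2 difference and the number tested in brackets. Endoderm factors have 11 of 16 higher; the mesoderm and amnion-trophoblast lists have 6 lower each.

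Ligands and receptors differed as well, with CXCL12 lower and its receptor CXCR4 higher in PRDM1-only cells. CXCL12, the chemokine that guides migrating germ cells and blood progenitors, measured 5.47, 1.99 and 4.34 RPM in PRDM1-only libraries, against 1227, 2114, 1929 and 1766 RPM in PRDM1-negative libraries. This was the largest decrease of all genes tested, with every PRDM1-negative library at 1227 RPM or more (log2 difference -8.52 ± 0.30 SE, limma adjusted p = 4.59e-06). CXCR4, its receptor, had 176, 325 and 686 RPM in PRDM1-only libraries, against 26.8, 34.6, 123 and 37.5 RPM in PRDM1-negative libraries. The receptor was thus higher in the cells in which the ligand was lower, in each library (log2 difference 2.87 ± 0.57 SE, limma adjusted p = 0.0189). CXCL12 remained called, at -8.03, with medium as a covariate, and CXCR4, at 3.61, was not. Neither was called by the labelled gates. KITLG, the ligand of the receptor tyrosine kinase KIT, was at 61.1, 139 and 106 RPM in PRDM1-only libraries, against 35.9, 45.1, 17.8 and 18.8 RPM in PRDM1-negative libraries. It was higher in PRDM1-only cells (log2 difference 1.79 ± 0.39 SE, limma adjusted p = 0.0261), while KIT itself overlapped between the groups, with 86.4, 10.9 and 139 RPM in PRDM1-only libraries, against 18.1, 56.3, 26.1 and 30.6 RPM in PRDM1-negative libraries. Of these 4 genes 2 were thus higher and 1 lower.

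The ligands BMP2 and BMP4 differed in opposite directions. Of 9 BMP and GDF ligands tested, BMP2 and GDF3 were higher and BMP4 lower, and the others were not called. BMP4, the factor that is also supplied in the medium, measured 13.7, 5.47 and 6.51 RPM in PRDM1-only libraries, against 295, 263, 496 and 285 RPM in PRDM1-negative libraries. BMP2, its close relative, had 208, 66.2 and 121 RPM in PRDM1-only libraries, against 2.48, 0, 6.81 and 9.41 RPM in PRDM1-negative libraries. BMP4 was lower in all PRDM1-only libraries (log2 difference -5.18 ± 0.33 SE, limma adjusted p = 0.000125) and BMP2 higher in all of them (log2 difference 4.87 ± 0.76 SE, limma adjusted p = 0.00733). BMP2 stands on no list and was chosen after its values were seen. The medium covariate left BMP4 called at -5.05. Among 13 BMP target genes 4 were lower and none was higher (median log2 difference -1.02). ID2, an inhibitor of helix-loop-helix factors, was at 379, 111 and 125 RPM in PRDM1-only libraries, against 1241, 1366, 2117 and 1438 RPM in PRDM1-negative libraries. BAMBI, a decoy receptor, measured 452, 160.3 and 175 RPM in PRDM1-only libraries, against 1588, 1350.2, 3397 and 1209 RPM in PRDM1-negative libraries. These, MSX1 (-2.28) and SMAD9 (-2.49) were the 4 called, and ID2, BAMBI and MSX1 were called without the libraries labelled BTAG (log2 differences in the comparison of all 7 libraries were -3.11 ± 0.40 for ID2 and -2.88 ± 0.44 for BAMBI; SE; limma adjusted p = 0.00325 and 0.00671). ID1, with 233, 232 and 193 RPM in PRDM1-only libraries, against 379, 376, 379 and 276 RPM in PRDM1-negative libraries, fell short of a log2 difference of 1 (-0.67, limma adjusted p = 0.0469), and ID3, with 954, 1139 and 856 RPM in PRDM1-only libraries, against 1149, 1063, 1343 and 1045 RPM in PRDM1-negative libraries, was not called (log2 difference -0.23 ± 0.16 SE). None of the BMP targets was called by the labelled gates or with medium as a covariate.

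WNT genes changed in both directions: 4 of 17 were higher and 2 lower, beside 3.61% and 3.92% of all genes tested. Without the libraries labelled BTAG 1 was higher and 2 were lower. WNT9B, a WNT ligand on no list, had 2.73, 0.5 and 0.36 RPM in PRDM1-only libraries, against 100.3, 34.3, 159 and 152 RPM in PRDM1-negative libraries. It lay below 3 RPM in PRDM1-only cells (log2 difference -5.62 ± 0.58 SE, limma adjusted p = 0.00125). Of the secreted antagonists, FRZB and SFRP1 were higher and SFRP2 lower. FRZB, a decoy of WNT receptors, was at 91.2, 25.4 and 74.5 RPM in PRDM1-only libraries, against 1.24, 0, 1.89 and 0.45 RPM in PRDM1-negative libraries. SFRP2, a protein of the same family, measured 2.39, 4.48 and 1.45 RPM in PRDM1-only libraries, against 121, 154, 95.7 and 82.6 RPM in PRDM1-negative libraries. FRZB was higher in PRDM1-only cells (log2 difference 5.02 ± 0.57 SE, limma adjusted p = 0.00179) and SFRP2 lower (log2 difference -4.96 ± 0.33 SE, limma adjusted p = 0.000126). In the other 26 reporter-line libraries FRZB never passed 2.44 RPM and SFRP2 never fell under 40.9 RPM, so both PRDM1-only levels lie outside that range. SFRP1, the third of the family on the list, was higher by 1.21 ± 0.29 on the log2 scale (SE; limma adjusted p = 0.0345). The targets NKD1 (2.15) and TCF7 (1.61) were higher by the log2 differences in brackets, whereas AXIN2, a general readout of the pathway, had 83.4, 120.5 and 174 RPM in PRDM1-only libraries, against 91.2, 142, 104 and 74.1 RPM in PRDM1-negative libraries and was not called.

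**Figure D4:**
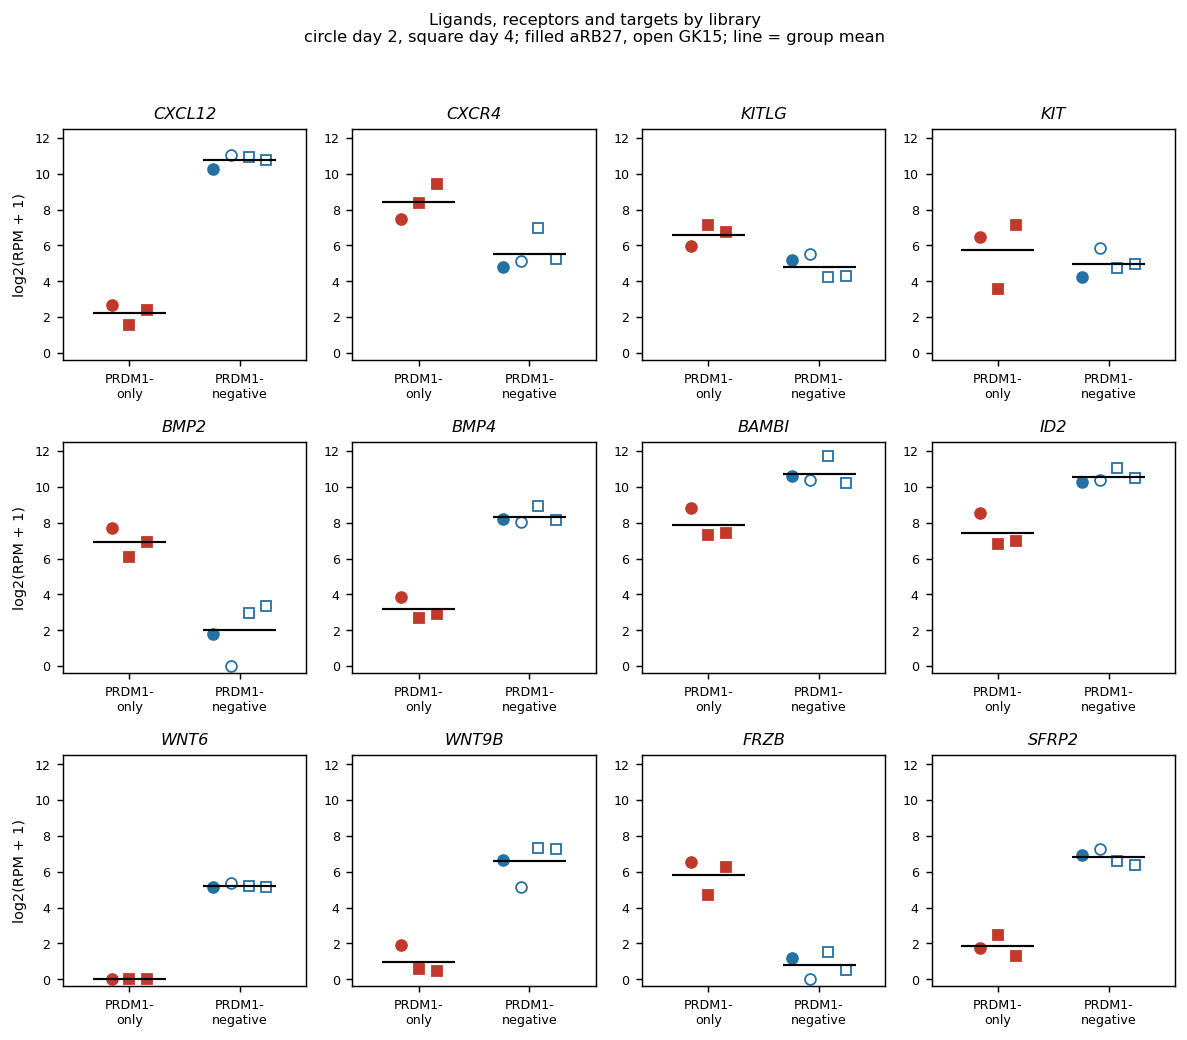
Each panel shows 1 gene in log2(RPM + 1), PRDM1-only libraries on the left (red) and PRDM1-negative on the right (blue); circles are day 2, squares day 4, filled symbols aRB27, open symbols GK15, and the line is the group mean. CXCL12, BMP4, WNT6, WNT9B and SFRP2 are low on the left, and CXCR4, BMP2 and FRZB high; the filled blue circle is the only PRDM1-negative library in the medium of the PRDM1-only ones.

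Without the libraries labelled BTAG FGF genes gave 3 higher and 1 lower. In the comparison of all 7 libraries 4 of 17 tested were higher and 3 lower, beside 3.61% and 3.92% of all genes tested. Higher were FGF17, described above, and the ERK-responsive genes ETV5 (log2 difference 2.15 ± 0.32 SE, limma adjusted p = 0.00561), ETV4 (1.96 ± 0.34 SE, limma adjusted p = 0.011) and SPRY1 (1.85 ± 0.34 SE, limma adjusted p = 0.0133). ETV5 had 119.6, 100.04 and 152 RPM in PRDM1-only libraries, against 26, 15, 36 and 35.7 RPM in PRDM1-negative libraries. Lower were the ligand FGF2 (-2.98), the factor ETV1 (-2.71) and the receptor FGFR2 (-2.21). FGF2, a ligand that stem cells make and are given, had 2.39, 9.46 and 9.77 RPM in PRDM1-only libraries, against 97.4, 152, 26.1 and 25.1 RPM in PRDM1-negative libraries. The PRDM1-only cells were below all others, and the PRDM1-negative cells had less on day 4 than on day 2 (log2 difference -2.98 ± 0.70 SE, limma adjusted p = 0.0332). DUSP6, a phosphatase induced by ERK, had 246, 366 and 332 RPM in PRDM1-only libraries, against 59.4, 71.3, 283 and 205 RPM in PRDM1-negative libraries and was not called.

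Adhesion and matrix genes changed in both directions, with N-cadherin and vimentin higher and claudin 10 lower. CDH2, N-cadherin, was at 736, 532 and 775 RPM in PRDM1-only libraries, against 156, 109, 67 and 103 RPM in PRDM1-negative libraries. VIM, vimentin, measured 3873, 4382 and 6012 RPM in PRDM1-only libraries, against 889.5, 1345, 1842 and 2356 RPM in PRDM1-negative libraries. Both were higher in all PRDM1-only libraries (log2 difference 2.68 ± 0.28 SE, limma adjusted p = 0.00125 for CDH2; log2 difference 1.63 ± 0.32 SE, limma adjusted p = 0.0162 for VIM), while the mesenchymal genes CDH11 (-2.12) and ZEB2 (-2.60) were lower, so the mesenchymal list had 2 calls each way in 11 tested. CDH1 (E-cadherin) did not pass the filter and had 0 RPM in every PRDM1-only library, against 4.13, 7.34, 12.9 and 8.96 RPM in PRDM1-negative libraries. CLDN10, a tight junction protein, had 0 RPM in every PRDM1-only library, against 480.3, 389.6, 5.3 and 15.2 RPM in PRDM1-negative libraries. It was at 0 in PRDM1-only cells and high only in PRDM1-negative cells of day 2. The PRDM1-negative mean of 223 RPM, which the day 2 libraries set, was at least 571-fold above 3 reads over the 3 PRDM1-only libraries. On the log2 scale the difference was -6.05 ± 1.44 (SE, limma adjusted p = 0.0344). The desmosome protein PKP2 (-1.95) was the other of 14 epithelial genes that was lower, and none was higher. Neither was called without the libraries labelled BTAG, with medium as a covariate or by the labelled gates, and on day 2 alone, with 1 PRDM1-only library, 5 of the list were higher and 1 lower. Of 15 basement membrane genes NID1 was higher (2.12 ± 0.50 SE, limma adjusted p = 0.033) and LAMA4 (-4.96 ± 0.55 SE, limma adjusted p = 0.00155) and LAMB2 (-1.52 ± 0.33 SE, limma adjusted p = 0.0256) lower; the other 12 were not called. COL9A2, a collagen of cartilage and notochord, was at 454, 161 and 718 RPM in PRDM1-only libraries, against 3.71, 9.44, 2.27 and 1.49 RPM in PRDM1-negative libraries. It ranked among the largest increases (log2 difference 6.39 ± 0.59 SE, limma adjusted p = 0.0008). VCAN, a matrix proteoglycan, had 638, 141 and 494 RPM in PRDM1-only libraries, against 67.7, 59.5, 42.4 and 61.1 RPM in PRDM1-negative libraries (log2 difference 2.62 ± 0.46 SE, limma adjusted p = 0.0117). FN1, fibronectin, had 13235, 460.4 and 4856 RPM in PRDM1-only libraries, against 2372, 1924, 3486 and 2419 RPM in PRDM1-negative libraries, so that its highest and its lowest library were both PRDM1-only ones, and it was not called. Of 9 contractile genes ACTC1 (-3.47), TAGLN (-1.91) and MYL9 (-1.62) were lower and none higher. None of the 3 was called without the libraries labelled BTAG, with medium as a covariate or by the labelled gates.

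With all 7 libraries 2 of 6 germ cell genes tested were called, both higher, where 3.61% of all genes tested were higher. No pluripotency gene was called, where 7.54% of all genes were called in either direction. In lists as short as those below, a count of 0 lies near that share and says little about the genes. Of 17 germ cell genes only 6 passed the filter and 2 were higher, SOX17 and ALPL, an alkaline phosphatase (log2 difference 2.92 ± 0.41 SE, limma adjusted p = 0.00452), with 265, 97 and 268 RPM in PRDM1-only libraries, against 25.6, 36.7, 15.1 and 24.5 RPM in PRDM1-negative libraries. NANOS3, the RNA-binding protein that defines specified germ cells, had 1.71, 5.47 and 0.72 RPM in PRDM1-only libraries, against 4.13, 0.7, 0.76 and 0.3 RPM in PRDM1-negative libraries. DAZL, TCL1B and UTF1 were listed at 0 in all 7 libraries. Of the pluripotency genes none of 9 was called, although POU5F1 had 24.3, 319.5 and 70.2 RPM in PRDM1-only libraries, against 792, 832, 315 and 75.9 RPM in PRDM1-negative libraries (log2 difference -2.10, limma adjusted p = 0.232). None of the 9 reached an unadjusted limma p under 0.05, and neither edgeR nor DESeq2 on recovered reads called any. On day 2 alone, where the PRDM1-only group is 1 library, 5 of the 9 were called lower and none higher. Of 14 proliferation genes none was called by the 3 tools or reached an unadjusted p under 0.05 (median log2 difference 0.28). Of 8 enzymes of DNA methylation and demethylation none was called by the 3 tools, and 1 had an unadjusted p under 0.05 (median 0.23). Of 10 immediate early genes limma and edgeR called none and DESeq2 called 1, and 3 had an unadjusted p under 0.05. The 7 germ cell markers summed to between 674 and 1376 RPM in PRDM1-only libraries and between 137 and 1099.6 RPM in PRDM1-negative ones, sums that overlap and hold PRDM1 and TFAP2C, which define the groups or gates. Those of undifferentiated stem cells, SOX2 and 3 more, summed to between 424 and 658 RPM in PRDM1-only libraries and between 68.9 and 387 RPM in PRDM1-negative ones, and ZIC2 held most of the PRDM1-only sums. SOX2 levels were used to choose the PRDM1-negative group, so the rule in part sets these sums.

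Of 10 genes of primed epiblast and neural fate 2 were higher, SFRP1 among them, and SFRP2 was lower. Of 18 HOX genes tested 3 were lower, HOXB2 (-3.05) and HOXC13 (-3.21) among them, beside 3.92% of all genes tested. None was higher, which is near the 3.61% of all genes. None of the 3 was called without the libraries labelled BTAG. Of 6 retinoic acid genes ALDH1A1, an enzyme that makes retinoic acid, was higher (log2 difference 5.18 ± 0.96 SE, limma adjusted p = 0.0133), with 124, 5.47 and 73.4 RPM in PRDM1-only libraries, against 0, 0, 0.38 and 0 RPM in PRDM1-negative libraries. The first day 4 library was close to the PRDM1-negative ones, and ALDH1A1 was not called without the libraries labelled BTAG, with medium as a covariate or by the labelled gates.

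A few endothelial and blood genes were higher: 3 of 6 tested and none lower (median log2 difference 2.21). Over all genes tested 3.61% were higher. The same 3 were called without the libraries labelled BTAG, and 1 of the list was by the labelled gates. Of 16 listed genes 10 did not pass the filter. The 3 called genes were below 10 RPM in every PRDM1-negative library. They passed only through the PRDM1-only libraries, where they were high, so the filter in part sets the count and the median. The 6 markers of these cells summed to between 128 and 360 RPM in PRDM1-only libraries and between 28.7 and 146 RPM in PRDM1-negative ones, and their part was not tested. LMO2, an adaptor of blood and endothelial factors, measured 136, 202 and 177 RPM in PRDM1-only libraries, against 4.95, 2.8, 0 and 0 RPM in PRDM1-negative libraries. CDH5, vascular cadherin, had 71.8, 87.1 and 89.7 RPM in PRDM1-only libraries, against 4.54, 2.1, 0 and 0.75 RPM in PRDM1-negative libraries. PECAM1, a junction protein of endothelium and platelets, was at 28.7, 8.96 and 25.7 RPM in PRDM1-only libraries, against 0.41, 0, 0.38 and 0 RPM in PRDM1-negative libraries. In none of the 3 did the groups overlap (log2 difference 6.29 ± 0.64 SE, limma adjusted p = 0.00125 for LMO2; log2 difference 5.16 ± 0.55 SE, limma adjusted p = 0.00135 for CDH5; log2 difference 4.08 ± 0.66 SE, limma adjusted p = 0.00836 for PECAM1). The defining factors of blood and endothelium were not detected at a comparable level: TAL1 was at most 2.53 RPM, GATA1 at most 0.36 RPM, and ERG, HBE1 and PTPRC were listed at 0 in all 7 libraries. LMO2 and CDH5 also reached 479 and 79.5 RPM in other BTAG libraries of the series. KDR, a receptor of vessels and of early mesoderm, overlapped, with 88.8, 32.4 and 241 RPM in PRDM1-only libraries, against 64.8, 26.6, 93.1 and 145 RPM in PRDM1-negative libraries.

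Other leading differences belong to no list. NRCAM, a neuronal adhesion protein, measured 96.3, 123 and 87.2 RPM in PRDM1-only libraries, against 0, 0, 0 and 0.75 RPM in PRDM1-negative libraries. ADM, the peptide hormone adrenomedullin, had 70.04, 92.6 and 95.9 RPM in PRDM1-only libraries, against 0, 0, 0.38 and 3.74 RPM in PRDM1-negative libraries. DRAM1, a lysosomal membrane protein, was at 137, 97 and 136 RPM in PRDM1-only libraries, against 0.41, 1.05, 3.41 and 0.15 RPM in PRDM1-negative libraries. All 3 were near 0 in PRDM1-negative cells, and all were called with medium as a covariate (log2 difference 6.47 ± 0.39 SE, limma adjusted p = 0.000111 for NRCAM; log2 difference 5.75 ± 0.57 SE, limma adjusted p = 0.00119 for ADM; log2 difference 5.97 ± 0.47 SE, limma adjusted p = 0.000396 for DRAM1). ADM and DRAM1 are not confined to PRDM1-only cells, since other BTAG libraries reached 406 and 241 RPM. Among the largest decreases, DLX2, a homeobox factor of craniofacial mesenchyme and forebrain, measured 0, 0.5 and 0 RPM in PRDM1-only libraries, against 166, 82.2, 126 and 99.96 RPM in PRDM1-negative libraries. SPNS2, a sphingosine-1-phosphate transporter, had 0 RPM in every PRDM1-only library, against 49.9, 33.9, 301 and 75.8 RPM in PRDM1-negative libraries. EPAS1, the hypoxia-inducible factor HIF2A, was at 107, 0.5 and 4.34 RPM in PRDM1-only libraries, against 432, 404, 356 and 442 RPM in PRDM1-negative libraries. DLX2 and SPNS2 were at or near 0 in PRDM1-only cells (log2 difference -6.66 ± 0.32 SE, limma adjusted p = 1.76e-05 for DLX2). The SPNS2 mean of 115 RPM in PRDM1-negative libraries, raised by the library at 301 RPM, was at least 295-fold above 3 reads over the 3 PRDM1-only libraries. Its log2 difference was -6.32 ± 0.65 (SE, limma adjusted p = 0.00125). EPAS1 was lower too, but its day 2 library held far more than those of day 4 (log2 difference -5.42 ± 1.16 SE, limma adjusted p = 0.0239). The growth factor BDNF (-5.15 ± 0.68 SE, limma adjusted p = 0.00352) and the membrane protein VAT1L (-5.69 ± 0.62 SE, limma adjusted p = 0.00155) complete the 12 largest decreases with genes described above.

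For some genes the difference between the groups was not the same on both days. The interaction of group and day was called for 28 genes of 9661 (0.29%; 10 more positive on day 4 and 18 more negative), with 903 at an unadjusted p under 0.05. Only aRB27 supplied PRDM1-only cells, and both day 4 libraries of the PRDM1-negative group came from GK15, so day and medium cannot be told apart in this term. PRDM1-only cells of day 2 are 1 library, on which every one of these calls rests, so day cannot be told apart from that library either. CER1, an endoderm antagonist of NODAL, BMP and WNT, measured 20.8, 935 and 2363 RPM in PRDM1-only libraries, against 297, 82.9, 6.05 and 6.87 RPM in PRDM1-negative libraries. In PRDM1-only cells the day 4 libraries were the high ones and in PRDM1-negative cells those of day 2, so the difference was more positive on day 4 than on day 2 by 10.50 ± 0.98 on the log2 scale (SE; limma adjusted p = 0.0228). SP5, a WNT-induced repressor, had 70.04, 198 and 256 RPM in PRDM1-only libraries, against 56.9, 50.01, 3.03 and 7.62 RPM in PRDM1-negative libraries. It followed the same course (interaction 4.88 ± 0.62 SE, limma adjusted p = 0.0411). KRT18, a keratin of simple epithelia, was at 703, 319 and 402 RPM in PRDM1-only libraries, against 654, 931, 3463 and 4229 RPM in PRDM1-negative libraries. Here the high libraries were the PRDM1-negative ones of day 4, and the interaction was negative (-3.26 ± 0.39 SE, limma adjusted p = 0.0373). KRT19 went the same way, with 294, 14.4 and 65.5 RPM in PRDM1-only libraries, against 87.9, 78, 1169.7 and 783 RPM in PRDM1-negative libraries (interaction -6.72 ± 0.94 SE, limma adjusted p = 0.046).

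**Figure D5:**
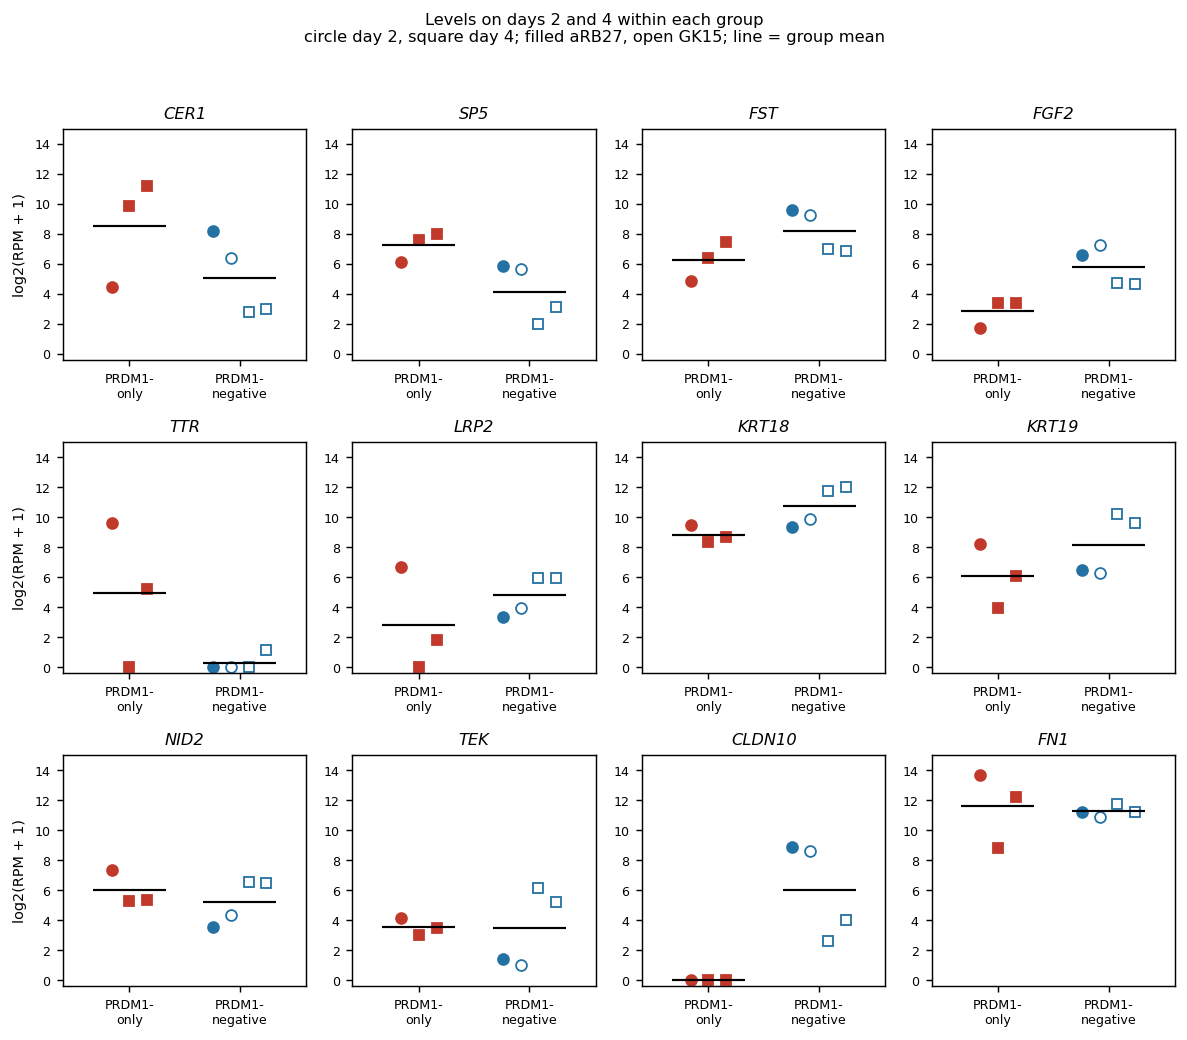
Each panel shows 1 gene in log2(RPM + 1), PRDM1-only on the left (red) and PRDM1-negative on the right (blue); circles are day 2, squares day 4, filled aRB27, open GK15, and the line is the group mean. CER1 and SP5 are higher on day 4 on the left and on day 2 on the right; TTR is high in the PRDM1-only library of day 2 (778 RPM) and at 0 in 1 of day 4.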

How the data were processed

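The deposited table gives RPM per gene, computed by the authors from 3′ reads, with 1 column for each library used. Cutadapt 1.3, TopHat 1.4.1 and Cufflinks 2.2.0 are named in the submitters' processing notes, with no role given. The genome build and the way reads were counted are not given in the sources used here; reads of near-identical or overlapping genes may be split or shared, and no coordinates are printed. The table has 26018 entries, 9295 of them LOC entries. The members, the 24 gene lists and the tests were chosen with earlier results of these data known.

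The filter kept 10 RPM or more in 2 or more of the 7 libraries, and PRDM1, SOX2 and TFAP2C were left out. A gene near 0 in either group could pass only through the other group, where it was high. The test was limma 3.58.1 (R 4.3.3, trend on the mean level) on log2(RPM + 1), a scale that understates changes of low genes. Calls needed a Benjamini-Hochberg adjusted p under 0.05 and a log2 difference (PRDM1-only minus PRDM1-negative) of 1 or more either way. Low values were whole multiples of 1 read (within 0.1 steps, 99.4% to 99.8% of values up to 100 steps); on these reads 725 genes were called with the quasi-likelihood test of edgeR 4.0.16 and 1128 with DESeq2 1.42.0. Folds against a group without a read are bounds against 3 reads over that group and cover counting error only. They use the arithmetic mean of the other group, which a single high library can raise.

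Named genes were up to 4 called members of each list with the largest differences and no overlap, and the 12 largest increases and decreases without LOC entries; others are given as levels or were chosen after their values were seen. Of 364 list symbols 358 were in the table and 244 passed the filter. Alternatives were other pseudocounts, filters, scalings and thresholds, day or medium as a covariate, single days or aRB27 alone, other PRDM1-negative groups, a fit of all reporter-line libraries, and leaving out single libraries. Scripts were tested on simulated data. The mouse table was not used here, and some genes that the rule names are not reported here.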

Additional observations from a re-analysis of the deposited data

Results flagged for a closer look

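For continuous values, chance puts 1 of 4 libraries far from the other 3 in about 1 of 20 groups. Where 3 libraries are at 0, any read in the remaining library meets this rule, so that rate does not apply. Among 63 genes examined, 5 had 1 of the 4 PRDM1-negative libraries far from the other 3. In 4 of them the other 3 libraries were at 0 and the value rests on a few reads: ALDH1A1 and FGF17 at 0.38 RPM each (1 read) in the GK15 day 4 library labelled BTAG, and OTX2 at 0.3 RPM (2 reads) and NRCAM at 0.75 RPM (5 reads) in the GK15 day 4 library labelled AG mid. The fifth was LAMB2, lowest in that last library at 24.5 RPM (164 reads).

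For 9 genes on the lists the difference between the groups was not the same on days 2 and 4, by limma's test of the interaction, a term in which day cannot be told apart from medium or from the single PRDM1-only library of day 2. On the log2 scale it was more positive on day 4 by 10.50 for CER1 (limma adjusted p = 0.0228), 4.88 for SP5 (0.0411), 4.54 for FST (0.0373) and 3.85 for FGF2 (0.046). It was more negative for LRP2 (-8.04, limma adjusted p = 0.0373), KRT19 (-6.72, 0.046), TEK (-5.41, 0.046), NID2 (-4.62, 0.0373) and KRT18 (-3.26, 0.0373). FST, a binder of activins, had 28.7, 84.6 and 174 RPM in PRDM1-only libraries, against 781, 609.9, 126 and 116 RPM in PRDM1-negative libraries. LRP2, an endocytic receptor, had 101.47, 0 and 2.53 RPM in PRDM1-only libraries, against 9.08, 14.7, 59.4 and 59.9 RPM in PRDM1-negative libraries, so the high libraries were that of day 2 in PRDM1-only cells and those of day 4 in PRDM1-negative cells.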

How the results depend on the processing

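The count of 728 called genes fell to 396 at a log2 difference of at least 2, 62 with medium as a covariate, 90 in aRB27 alone (69 higher), 485 on day 4 alone and 292 with only AG mid libraries as PRDM1-negative, and rose to 1129 on day 2 alone and 1128 with DESeq2. Single libraries left out gave 301 to 735 calls: 301 without the second BT day 4 library and 427 without the BT day 2 library. The labelled gates (151 calls) gave 2 to 183 with 1 library left out, 2 without the second BT day 4 library, 52 without the first, 20 without the BT day 2 library, and 58 and 71 without the AG mid GK15 libraries of day 2 and of day 4 (replicate 2). Under 150 RPM of PRDM1, a group of 12 libraries that takes in BTAG ones, 840 genes were called, of which 340 were among the 728, but 8 named genes turned to higher in PRDM1-only cells, none of them past the threshold (log2 differences CDH11 2.61, FGFR2 0.42, HOXB2 0.49, ISL1 0.35, MSX1 1.67, PKP2 0.73, TAGLN 0.49 and ZEB2 0.41). By the labelled gates 31 of the 701 called genes tested there had the opposite sign, with CDH11, MSX1 and PKP2 the named ones; the other alternatives turned no named gene round. With medium as a covariate 20 of the 64 named genes tested stayed called, with only AG mid libraries 38 and by the labelled gates 14.

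No paired analysis was possible because the labels number no replicates. Limits are the single line, the medium tied to the groups, the single aRB27 library among the PRDM1-negative ones, 2 libraries that go against their label, and depths near 2 to 3 M reads in 6 of the 7 libraries. The remaining library, labelled AG mid in GK15 on day 4, had 6.69 M reads. Its name carries MS134 where those of the other 6 carry MS162, and what these codes stand for is not given. It is 1 of the 2 PRDM1-negative libraries left when those labelled BTAG are taken out. In the 1-library groups (day 2 or aRB27 alone, and the interaction with day) the lone library is assumed to vary like the others.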

Other observations

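Gene families mostly outside the lists were looked at after the values were seen and are given as levels and limma calls. Their counts stand beside the 3.61% higher and 3.92% lower of all genes tested. Both DLX genes that were called were lower in PRDM1-only cells: DLX1, the neighbour and partner of DLX2, had 0.34, 2.99 and 0.72 RPM in PRDM1-only libraries, against 73.8, 25.9, 65.5 and 64.4 RPM in PRDM1-negative libraries (log2 difference -4.70 ± 0.49 SE, limma adjusted p = 0.00125). The third of the 3 DLX genes tested was not called. Of 16 semaphorins, guidance ligands of axons and vessels, 4 were lower and 1 higher. SEMA3D had 10.9, 0.5 and 19.2 RPM in PRDM1-only libraries, against 140.3, 224, 103 and 122 RPM in PRDM1-negative libraries (log2 difference -4.32 ± 0.77 SE, limma adjusted p = 0.0117). SEMA3E had 87.1, 55.2 and 345 RPM in PRDM1-only libraries, against 6.19, 5.25, 1.14 and 4.78 RPM in PRDM1-negative libraries (log2 difference 4.62 ± 0.64 SE, limma adjusted p = 0.00437), so members of the class 3 semaphorins lay on opposite sides.

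Ephrin signalling showed a ligand and a receptor on opposite sides. EFNA1, a membrane-bound ligand, had 83.7, 44.8 and 58.6 RPM in PRDM1-only libraries, against 339, 256, 283 and 238 RPM in PRDM1-negative libraries (log2 difference -2.18 ± 0.24 SE, limma adjusted p = 0.00151). EPHA4, a receptor for ephrins, had 92.2, 42.3 and 79.6 RPM in PRDM1-only libraries, against 2.89, 4.55, 8.7 and 14 RPM in PRDM1-negative libraries (log2 difference 3.20 ± 0.48 SE, limma adjusted p = 0.00634). Of 12 ephrins and Eph receptors tested these were the 2 called. Of 8 cadherins, CDH2 and CDH5 were higher, and CDH3, CDH10 and CDH11 lower. CDH3, P-cadherin, had 57, 2.49 and 13.4 RPM in PRDM1-only libraries, against 116, 61.2, 285 and 385 RPM in PRDM1-negative libraries (log2 difference -3.56 ± 0.92 SE, limma adjusted p = 0.047).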
